A study of Gossypium hirsutum with 3 samples.

Results

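The homeobox, TCP and SBP transcription factors (TFs) with homeolog-biased expression were examined in cotton leaf. They were taken from the study's list of TFs called A-biased or D-biased in these same leaf libraries, as every TF whose family name begins with HB or is TCP or SBP. The rule gave 37 of the 384 listed TFs, among the 70478 genes of each library. Of these, 18 were listed as A-biased and 19 as D-biased. The homeobox group held 21 genes, of which 9 were HD-ZIP, 5 BELL, 3 KNOX, 3 WOX and 1 of no named subgroup. There were 8 TCP and 8 SBP genes. The BELL genes were all D-biased, and the other families of more than 1 gene held genes of both kinds. Families are those of the list, since the expression files pair no identifier with a gene name and 0 of the identifiers were found in the RefSeq gene table at hand. Names given below for 6 of the genes are those of the study. Leaf marker genes could not be looked up by name.

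The plants were Gossypium hirsutum TM-1, an allotetraploid cotton with subgenomes named A and D, in which most genes have a homeolog in the opposite subgenome. Leaves of untreated, greenhouse-grown plants aged 20 days were collected, and RNA was sequenced in 3 replicate libraries of this single genotype and condition (the deposited protocol speaks both of mRNA taken away on oligo(T) beads and of enriched mRNA, and was read as mRNA enrichment). Expression is given as FPKM, fragments scaled by the length of the exons and by the number of mapped fragments, computed by the authors, so that levels can be set side by side between genes. Nothing states that the libraries came from separate plants, and a leaf is a mixture of cell types, in which fewer cells of a type and less RNA per cell cannot be told apart.

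These families shape the plant body. HD-ZIP proteins carry a homeodomain followed by a leucine zipper and act, in Arabidopsis, in leaf polarity, epidermal fate and responses to light and water. KNOX proteins keep the shoot meristem active or, in their other class, work in differentiating organs, and BELL proteins are their dimer partners. WOX proteins maintain stem cells and drive blade outgrowth. TCP proteins set how long leaf cells divide, and SBP proteins govern the change from juvenile to adult growth, many of them under the control of the microRNA miR156. A gene enters a list of biased TFs only if it was the higher homeolog of an expressed pair, so that being expressed here, and exceeding its homeolog, is a consequence of the selection and not a finding.

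The 3 libraries were alike over all genes, with Spearman's correlations across genes between 0.981 and 0.987, genes not being independent replicates. No read totals were used. Among genes below 0.05 FPKM, where values move in steps of single fragments, the commonest ratio between libraries was 0.96 (library 1 to 2), 0.99 (1 to 3) and 1.04 (2 to 3), shared by 63 to 74 genes, so that the value of a fragment differed little. Library 3 stood a little apart. Over the 38733 genes at FPKM 1 or more in every library, its median level was lower than in library 2 by a log2 difference of 0.15 and lower than in library 1 by 0.13, while its 10 most abundant genes held 9.35% of all FPKM against 8.00% and 8.03% in libraries 1 and 2. Results that move with library 3 are given below with that shift beside them.

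All 37 genes reached FPKM 1 in every library. Their mean FPKM spanned from 1.63 to 85.2, a 52.4-fold range, with a median of 10.2 and quartiles of 6.87 and 20.3. For comparison, the median was 5.89 among the other 347 biased TFs (quartiles 2.59 and 15.0), and 6.98 among the 40059 genes with a subgenome letter and a mean FPKM of 1 or more. A mean FPKM of 10 or more was found for 20 of the 37 genes (54.1%), for 117 of the other biased TFs (33.7%) and for 15247 of the 40059 expressed genes (38.1%). Since the lists were chosen with these values in view, the shares stand side by side without a test. The 3 most abundant genes, a TCP, an HD-ZIP and a KNOX gene, held 32.7% of the summed FPKM of the 37. When the genes were ordered by mean FPKM, the library values of 28 of the 36 neighbouring ranks overlapped, so that the order is resolved between broad tiers rather than from gene to gene.

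**Figure D1:**
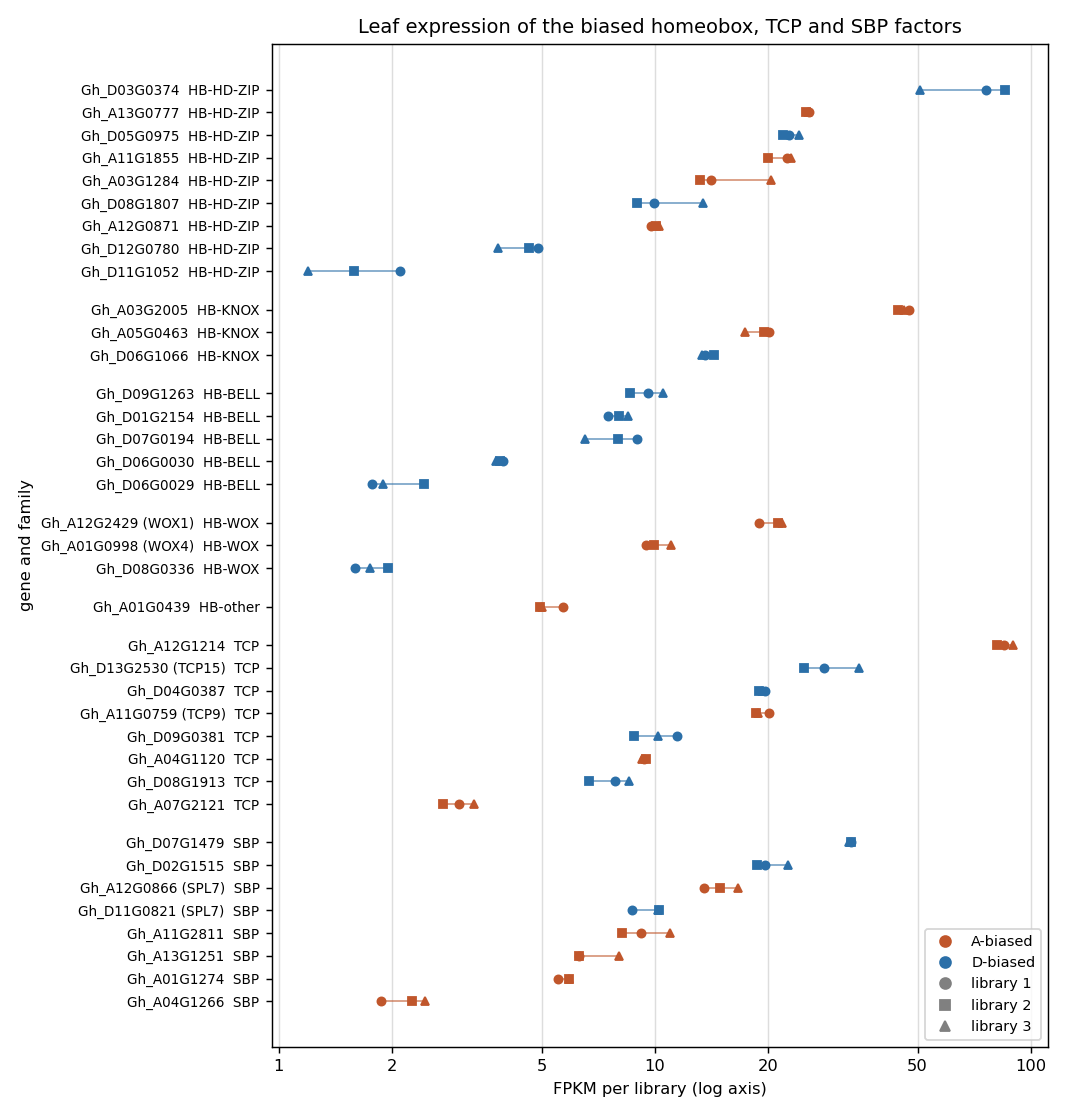
FPKM of each of the 37 genes in the 3 libraries (horizontal log axis), grouped by family; colour gives the subgenome the gene is biased to and symbols the library. The TCP gene Gh_A12G1214 (mean 85.2) and the HD-ZIP gene Gh_D03G0374 (70.8) lie farthest to the right and the HD-ZIP gene Gh_D11G1052 (1.63) farthest to the left, while all 5 BELL genes lie below a mean of 10.

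The HD-ZIP genes were the most numerous and the most spread out, with a median of 15.9 and a 43.5-fold range. The highest was Gh_D03G0374, at 76.2, 85.3 and 50.7 FPKM in libraries 1, 2 and 3, which made up 38.5% of the summed FPKM of the 9 HD-ZIP genes. Library 3 was the low one for this gene, and its coefficient of variation (CV, the SD as a percentage of the mean) of 25.4% was among the 3 largest of the 37. The lowest was Gh_D11G1052, at 2.10, 1.59 and 1.19, again lowest in library 3 and with the largest CV of all 37 genes, 27.9%. Between these extremes, Gh_A13G0777 stood at 25.8, 25.2 and 25.6 with a CV of only 1.12%. The 4 A-biased HD-ZIP genes all had means of 10 or more, from 10.04 to 25.5, whereas the 5 D-biased ones included both extremes, with 3 of 5 at 10 or more. Gh_A03G1284 (14.1, 13.2 and 20.4) and Gh_D08G1807 (9.96, 8.96 and 13.4) were both highest in library 3, opposite to Gh_D03G0374, so that single genes went both ways. The median of the family nevertheless moved with library 3. It was 14.1, 13.2 and 20.4 in libraries 1, 2 and 3, and that of the D-biased HD-ZIP genes was 9.96, 8.96 and 13.4.

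The KNOX genes were expressed at 13.8 to 45.8 FPKM, the only family of several genes whose members all reached 10. Gh_A03G2005 was the highest, at 47.3, 44.2 and 45.9. It was followed by Gh_A05G0463 at 20.2, 19.6 and 17.4 and by the D-biased Gh_D06G1066 at 13.6, 14.3 and 13.4. The values of the 3 genes did not overlap, and Gh_A03G2005 exceeded Gh_A05G0463 by a ratio of 2.42 ± 0.20 (SD, n = 3 libraries). All 3 are listed with H3K4me3 alone, a mark of active genes. Whether they belong to the meristem class or to the other class of KNOX genes is not stated in the list.

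The BELL genes, the dimer partners of KNOX proteins, were lower, with means between 2.03 and 9.55 and none of 5 at 10. The KNOX values, 13.4 at the least, lay above every BELL value, 10.5 at the most, in each library. The highest was Gh_D09G1263 (9.57, 8.58 and 10.5), and Gh_D01G2154 (7.51, 8.02 and 8.49) lay below it without overlap. Gh_D07G0194 (8.97, 7.97 and 6.52) overlapped with both. A pair of BELL genes with adjacent identifiers, Gh_D06G0029 and Gh_D06G0030, were both D-biased and both low. Gh_D06G0030 was at 3.94, 3.87 and 3.79 and Gh_D06G0029 at 1.77, 2.43 and 1.89, a ratio of 1.94 ± 0.32 (SD, n = 3), with no overlap between them. Reads shared by such neighbours, if their sequences are alike, could be counted for either, which was not tested.

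The WOX genes stood at separate levels. The gene named WOX1 by the study, Gh_A12G2429, was at 19.0, 21.3 and 21.9 FPKM. The gene named WOX4, Gh_A01G0998, was at 9.50, 9.98 and 11.1, so that WOX1 was higher by a ratio of 2.04 ± 0.09 (SD, n = 3). In Arabidopsis, WOX1 acts in the outgrowth of the leaf blade and WOX4 in the cambium of the vasculature. The D-biased WOX gene, Gh_D08G0336, was at 1.60, 1.95 and 1.74, below WOX4 by a ratio of 5.80 ± 0.63 (SD, n = 3). Both A-biased WOX genes were listed with H3K4me3 and H3K27me3 together and in the leaf-related co-expression module of the study (the blue module), and the D-biased one was listed with H3K4me3 alone and outside that module.

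Of the TCP genes, Gh_A12G1214 had the highest level of all 37 genes, at 84.6, 81.2 and 89.8 FPKM, more than 97.7% of the 66434 genes with a subgenome letter. It held 46.5% of the summed FPKM of the 8 TCP genes, whose median was 14.7. Gh_D13G2530, named TCP15, followed at 28.2, 25.0 and 34.9. TCP15 of Arabidopsis acts in cell proliferation and in the gynoecium. Gh_A11G0759, named TCP9, stood at 20.1, 18.6 and 18.8, and Gh_D04G0387 at 19.6, 18.9 and 19.3, and their values overlapped. At the other end, Gh_A07G2121 was at 3.01, 2.74 and 3.32, 28.2-fold below the highest TCP gene. The 4 A-biased and 4 D-biased TCP genes had nearly the same median, 14.3 and 14.7, although the A-biased ones were spread more widely, from 3.02 to 85.2 against 7.68 to 29.3.

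The SBP genes had the lowest median of the larger families, 9.58, with 3 of 8 at 10 or more. Their highest members were D-biased. Gh_D07G1479 was at 33.2, 33.2 and 32.8 FPKM, with the smallest CV of all 37 genes (0.71%), and Gh_D02G1515 at 19.6, 18.7 and 22.7. A pair of genes on different chromosomes carry the name SPL7, which in Arabidopsis is the regulator of the response to low copper. The A-biased one, Gh_A12G0866, was at 13.5, 14.9 and 16.6 and the D-biased one, Gh_D11G0821, at 8.69, 10.3 and 10.2. Their values did not overlap, and the former was higher by a ratio of 1.55 ± 0.09 (SD, n = 3). Both were in the blue module. The lowest SBP gene was Gh_A04G1266, at 1.88, 2.26 and 2.45. By bias, the 5 A-biased SBP genes had a median of 6.87 and the 3 D-biased ones of 20.3, a direction opposite to that of the HD-ZIP genes, where the medians were 18.9 (A) and 10.8 (D). With 3 to 5 genes a group and no test, these are descriptions of the listed genes only.

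With all families pooled, the A-biased genes had a median FPKM of 12.6 and the D-biased genes of 9.72. The median of the A-biased genes was above that of the D-biased genes in each library, at 11.7, 11.6 and 13.9 against 9.57, 8.82 and 10.2. Among the other biased TFs the order was the other way round, with medians of 5.06 for 162 A-biased and 6.63 for 185 D-biased TFs. The quartiles of both groups overlapped widely (7.49 and 20.3 for the A-biased and 6.06 and 19.8 for the D-biased genes). The genes lay on 20 chromosomes, with the most, 4, on A12.

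The homeolog lists of the study were at hand only in part, with pairs of A01 and some of A02. Homeologs of 5 of the 37 genes were found in that part. Those of the other 32 genes were not analysed here. Of the 5 genes, 4 lie on A01 or D01, and Gh_D03G0374 has its homeolog on A02. The genes were chosen by this very contrast, so the differences are given as a description without a p-value. In all 5 pairs the listed gene was above its homeolog in every library with no overlap, as the D and A values were in 62.4% of the 1999 expressed pairs. By the thresholds of the study (limma with an adjusted p under 0.05 and a log2 difference reaching 1), 3 of the 5 were A-biased and 2 D-biased, where 10.8% and 13.3% of all 1999 pairs were called in these directions and 24.0% in either. The choice of the genes fixes both counts, and nothing is read from them. Fold changes are D minus A on a scale of log2(FPKM + 0.42), where the added value shrinks the differences of weakly expressed genes.

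The widest gap was that of Gh_A01G0439, the homeobox gene of no named subgroup. It was at 5.70, 4.95 and 5.02 FPKM, while its homeolog Gh_D01G0447 was at 0.072, 0.075 and 0.142. The A gene thus supplied 98.2% ± 0.8 (SD, n = 3) of the FPKM of the pair, and the log2 fold change was -3.45 (SE 0.11), the 13th largest of the 215 A-biased pairs by size. With a pseudocount of 1 it was -2.50, since the homeolog lies far below either pseudocount. The ratio of the means was 54.3, but the per-library ratios of 79.3, 66.3 and 35.3 rest on a homeolog near 0 and are loosely fixed. No mark is listed for this gene.

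The homeologs of the other A-biased genes were expressed at readily measured levels. WOX4, Gh_A01G0998, exceeded Gh_D01G1055 (4.11, 4.27 and 4.31 FPKM) by ratios of 2.31, 2.34 and 2.57, and supplied 70.6% ± 1.2 (SD, n = 3) of the pair. The log2 fold change was -1.19 (SE 0.10). The SBP gene Gh_A01G1274 stood at 5.52, 5.92 and 5.92 and its homeolog Gh_D01G1495 at 2.59, 2.39 and 2.98. Its log2 fold change of -1.02 (SE 0.11) lies just inside the threshold of 1. It was -0.90 with a pseudocount of 1 and -0.94 without library 2, which end the call. The pair nearest to the threshold from outside, Gh_A01G1189 and Gh_D01G1348, is not among these genes and had a log2 fold change of 0.99996 (SE 0.27).

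Both D-biased pairs differed by more than those of WOX4 and Gh_A01G1274. The BELL gene Gh_D01G2154, at 7.51, 8.02 and 8.49 FPKM, exceeded Gh_A01G1895, at 2.72, 2.27 and 2.45, with a log2 fold change of 1.54 (SE 0.11) and 76.3% ± 2.5 (SD, n = 3) of the FPKM of the pair. The median log2 fold change of all 265 D-biased pairs was also 1.54. The HD-ZIP gene Gh_D03G0374 exceeded Gh_A02G1237 by a log2 fold change of 2.86 (SE 0.34), the 45th largest of the 265. Its standard error was the widest of the 5, and the libraries disagreed on both genes. The homeolog Gh_A02G1237 was at 5.46, 13.9 and 9.94, lowest in library 1, whereas Gh_D03G0374 was lowest in library 3, so that the ratio ranged from 14.0 in library 1 to 5.10 in library 3. Even so, the D gene held between 83.6% and 93.3% of the pair in each library.

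**Figure D2:**
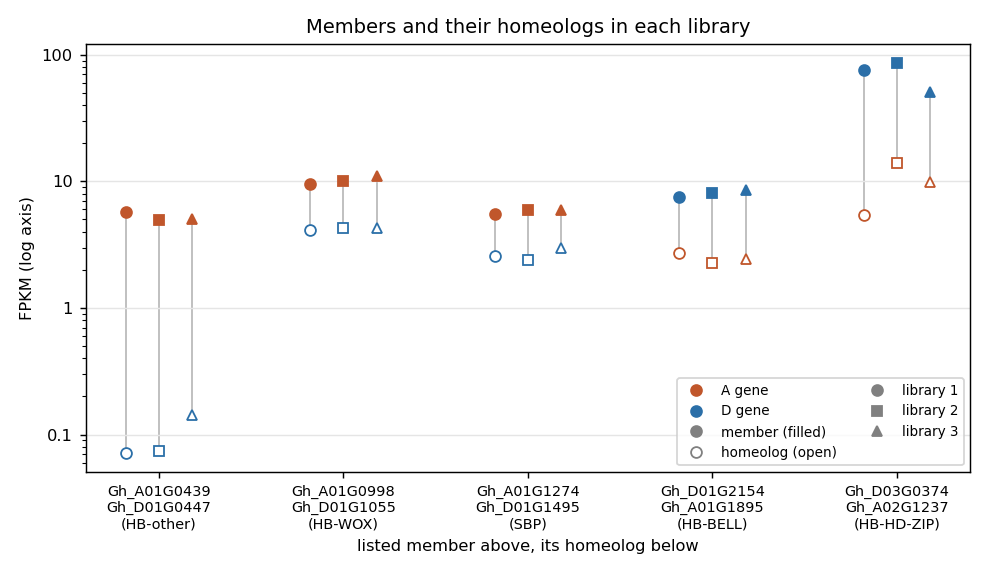
FPKM (log axis) of the 5 genes with an analysed homeolog (filled symbols) and of that homeolog (open symbols) in each library; grey lines join the values of 1 library. Every filled symbol lies above its open partner, with the widest gap for Gh_A01G0439 and Gh_D01G0447 and the least even one for Gh_D03G0374 and Gh_A02G1237.

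Histone marks in leaf, as listed by the study from ChIP-seq libraries that were not analysed here, were then set beside the expression levels. H3K4me3 is a mark of active genes and H3K27me3 of repressed ones. By the study's methods, a gene was related to a mark if a region called as enriched overlapped the gene or its near flanks. Those regions came from the first replicate of each mark. A listing is therefore no measure of the amount of a mark on a gene. Of the 37 genes, 28 (75.7%) were listed with H3K4me3 alone, 5 with both marks, 1 with H3K27me3 alone and 3 with none. H3K27me3, alone or with H3K4me3, was thus listed for 6 of 37 genes (16.2%), for 79 of the other 347 biased TFs (22.8%) and for 27 of the 44 biased TFs of other developmental families (61.4%), namely YABBY, GRF, LBD, OFP, MADS-MIKC, zf-HD, AP2, GRAS, SRS and ARF factors. These families were picked by hand, so the last share depends on the choice. The listing covered all 8 MADS-MIKC, all 5 YABBY and 5 of 7 LBD genes, but 2 of 8 GRAS and 1 of 4 AP2 genes.

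The 6 genes listed with H3K27me3 were not low. The gene with H3K27me3 alone, the HD-ZIP gene Gh_A12G0871, was at 9.76, 10.1 and 10.3 FPKM. The genes with both marks were Gh_A13G0777 (HD-ZIP), WOX1, WOX4, Gh_D04G0387 (TCP) and Gh_D01G2154 (BELL), with means from 8.01 to 25.5. Their median was 19.3, against 9.63 for the 28 genes with H3K4me3 alone. Among the other biased TFs the order was the reverse, with a median of 2.98 for 64 TFs with both marks and 8.45 for 234 with H3K4me3 alone. Over both kinds of listing, 5 of 6 of these genes and 11 of the 79 other TFs listed with H3K27me3 had a mean FPKM of 10 or more. A high level with a listed H3K27me3 was not particular to these families. All 5 biased YABBY genes are listed with H3K27me3, at 42.2 to 94.7 FPKM, above all 6 of these genes, and they supply 5 of the 11. The genes with H3K4me3 alone covered the whole range of levels, from 1.63 to 85.2, including the 4 lowest genes. Of the genes with both marks, Gh_A13G0777, WOX1 and WOX4 are also in the blue module. The 11 genes of that module had a median of 20.3, against 8.72 for the other 26. Listed mark and module were not separated here. The number of genes with H3K27me3 is small, and the difference was not tested.

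The 3 genes without a listed mark lay within the range of the rest. They were Gh_A01G0439 (mean 5.22), the HD-ZIP gene Gh_D08G1807 (10.8) and the SBP gene Gh_D02G1515 (20.3), the last of these being in the blue module. The 34 other biased TFs without a listed mark had a median of 3.96. The SBP gene Gh_A12G0866 with H3K4me3 and the HD-ZIP gene Gh_A12G0871 with H3K27me3 alone lie within 5 identifiers of each other on A12. The SBP gene was the higher by a ratio of 1.497 ± 0.12 (SD, n = 3), with no overlap. A single pair of different families does not relate the listed marks to the levels.

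**Figure D3:**
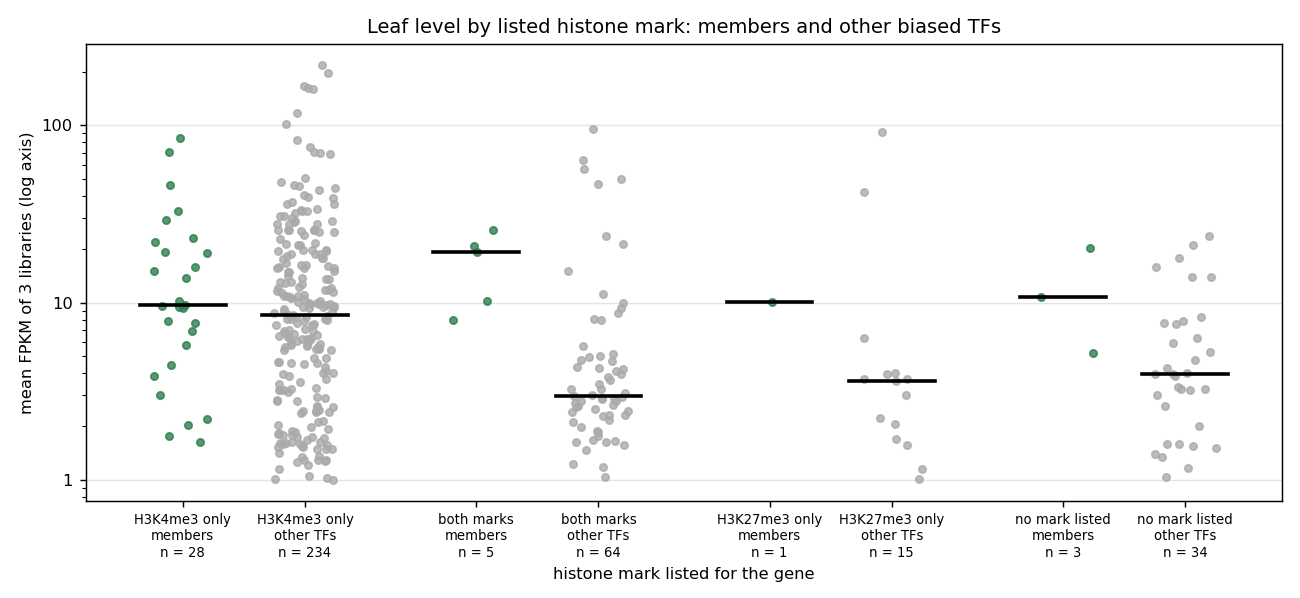
Mean FPKM of the 3 libraries (log axis) by listed histone mark for the homeobox, TCP and SBP genes (green) and for the other biased TFs (grey); black lines are medians. With both marks the 5 green points have a median of 19.3 and the 64 grey points of 2.98, while with H3K4me3 alone the medians are 9.63 and 8.45.

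The blue module, which the study built from expression over tissues and linked to leaf, lists 11 of the 37 genes (29.7%) and 40 of the other 347 biased TFs (11.5%). The 11 genes were 4 TCP genes (Gh_A12G1214, TCP15, TCP9 and Gh_A04G1120), 3 SBP genes (both SPL7 genes and Gh_D02G1515), both A-biased WOX genes, and the HD-ZIP genes Gh_A13G0777 and Gh_D05G0975. No KNOX or BELL gene was among them. Their median FPKM was 20.3 against 8.72 for the other 26 genes, and 9 of 11 against 11 of 26 had a mean of 10 or more. The same held for the other biased TFs, with medians of 21.4 in the module and 5.41 outside it. A level in leaf is part of what the module was built on, so that the gap was not tested. The highest HD-ZIP gene, Gh_D03G0374, and the highest KNOX gene, Gh_A03G2005, were outside the module.

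The spread over the libraries was then compared. The median CV over the libraries was 9.17% (quartiles 4.09% and 13.3%), against 11.8% for the other biased TFs and 11.9% for the 34998 genes with a subgenome letter in the same FPKM range. With the libraries scaled to the same median of expressed genes, these became 11.6%, 14.0% and 12.2%, so that the gap to genes of like level nearly closed. As deposited, the median CV was 7.58% for the A-biased and 10.2% for the D-biased genes, and with the libraries scaled 11.2% and 12.5%. Besides Gh_D07G1479, the smallest CVs were those of Gh_A04G1120 (9.38, 9.47 and 9.26 FPKM) and Gh_A13G0777. The median CV was 5.30% without library 3, 7.61% without library 1 and 8.27% without library 2. A CV of 2 libraries tends to be smaller than that of 3, so these compare with each other rather than with 9.17%. The highest value was found in library 3 for 18 of the 37 genes, in library 1 for 11 and in library 2 for 8. Among the A-biased genes library 3 was highest for 11 of 18, and among the D-biased genes for 7 of 19. Of the other biased TFs 47.6% were highest in library 3, and of the genes in the same FPKM range 31.4%. Scaling each library to the same median of expressed genes, which was added after seeing the data, raised these to 28 of the 37 genes, 63.7% of the other TFs and 47.1% of the genes in that range. The part that the lower median and the larger share of a few abundant genes in library 3 have in this was not tested.

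**Figure D4:**
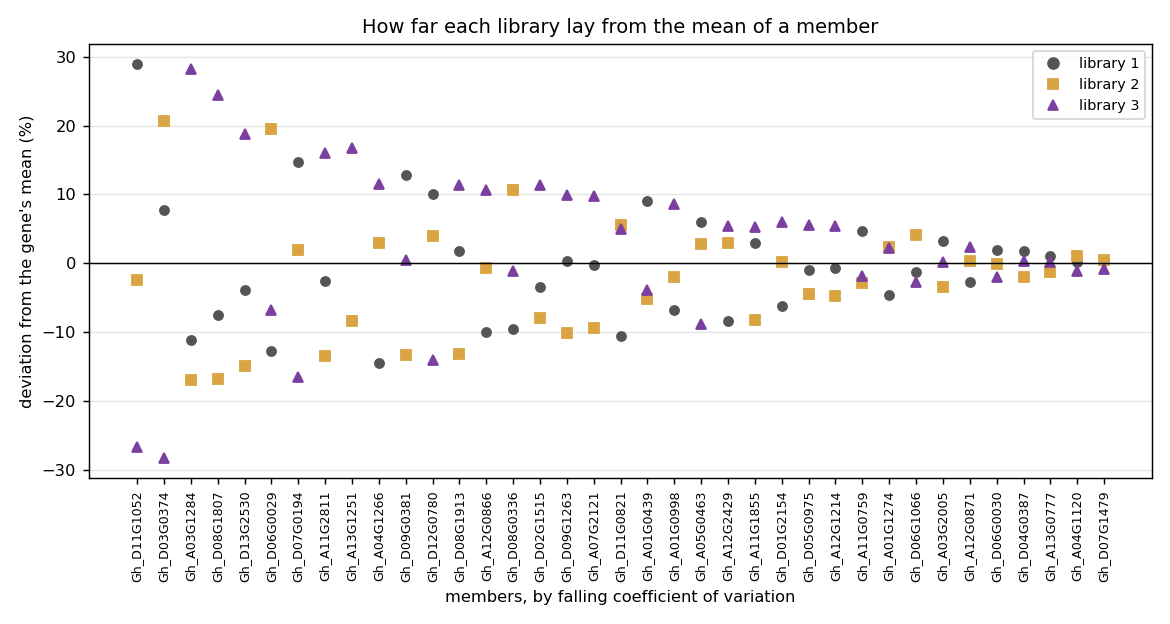
Deviation of each library from the mean of a gene (vertical axis, percent) for the 37 genes, ordered from the largest CV (Gh_D11G1052, 27.9%) to the smallest (Gh_D07G1479, 0.71%). Library 3 (triangles) is the highest point for 18 genes, but the lowest for the pair of genes with the largest CVs, Gh_D11G1052 and Gh_D03G0374.

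The other developmental families, which were picked by hand, were set beside these levels. Their 44 biased TFs had a median FPKM of 3.44, with 11 (25.0%) at 10 or more. The 5 YABBY genes, whose family acts in leaf polarity, were among these 11, at 42.2 to 94.7 FPKM and all with a listed H3K27me3. The other 6 were 1 OFP gene (46.4), 1 AP2 gene (40.2), 1 MADS-MIKC gene (21.3), 2 GRAS genes (13.1 and 13.9) and 1 zf-HD gene (10.03). The 7 LBD genes, at 1.15 to 3.21, were all below 10. OFP proteins interact with KNOX and BELL proteins in Arabidopsis, and the 5 OFP genes had a median of 2.41 beside 19.0 for KNOX and 7.82 for BELL. The highest OFP gene, at 46.4, was nevertheless level with the highest KNOX gene, at 45.8, and the other 4 lay at 2.79 or below.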

How the data were processed

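Leaf RNA of TM-1 was measured in 3 libraries. The authors used fastp to trim reads (minimum quality 25, minimum length 20 bp), aligned them by Hisat2 and computed the deposited FPKM with StringTie on the CottonGen annotation. Versions were not given in the sources used here. FPKM were used as deposited. Since FPKM are not counts, a count test could not be applied, and multi-mapped reads of homeologs and paralogs could be assigned to either gene. Families, biases, histone marks, module and homeologs were read from the study's lists, and gene names from its figures. The study's lists of homeologous pairs were at hand only in part, and the 2580 pairs of that part, from A01 and some of A02, were used. Of these, 1999 had a mean FPKM of 1 or more in at least 1 homeolog. These 1999 pairs were fitted with limma 3.58.1 (R 4.3.3) on log2(FPKM + 0.42), D minus A, with Benjamini-Hochberg adjustment. The fit was also run on simulated pairs, with spreads shuffled among pairs and A and D values varying independently. That run therefore says nothing on how the fit treats paired values. The pseudocount had been fitted to fold changes of the study in earlier work. Each library gives both the A and the D value, so libraries pair them (correlation of deviations across pairs, r = 0.547). The main fit did not use this pairing, and the SEs and calls given are those of the unpaired fit. With a replicate block the SEs of the pairs described ran from 0.07 (Gh_A01G0998) to 0.29 (Gh_D03G0374). All else is counts, medians and SDs in Python 3.11.15 with pandas 2.3.3, and figures were drawn with matplotlib 3.10.9.

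The genes and lists were chosen with earlier results of these data known. Genes were named by a rule: those with a homeolog, with a name, with H3K27me3 or no mark, with adjacent identifiers, the extremes of each family and subgenome, and the 3 largest and 3 smallest CVs. The remaining genes named were chosen after their values were seen. Alternatives covered the pseudocount, low-FPKM filters, centring, scaling, a replicate block and leaving out each library.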

Additional observations from a re-analysis of the deposited data

How the results depend on the processing

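Of 163 alternative values for 28 results, 150 stayed within the tolerance set for their kind, and none reversed. Part of this was fixed in advance, so the count does not measure robustness. All 37 genes reached FPKM 1 in every library, so that filter could change no median. Leaving out 1 of 3 libraries can hardly move a median by its tolerance. A reversal was defined only for the fold changes of the 5 pairs, whose genes were chosen by that contrast. The tolerance was the same direction and call for a fold change, 1.5 times for a count, 1 SD of the library values for a median, and equal to 2 significant digits for the median CV. A pseudocount of 1 took the log2 fold change of Gh_A01G1274 to -0.90, under the threshold, which left 4 of the 5 pairs called, and gave 173 A-biased and 211 D-biased pairs in all. Without a library it lay between -1.08 and -0.94, and the number of pairs called in the listed direction between 4 and 5. A minimum mean FPKM of 10 left 2 of the 5 pairs called, as only these passed it, and 75 A-biased and 112 D-biased pairs in all. Since each library gives the A and the D value, the pairing was tested with a replicate block, which gave 216 A-biased and 267 D-biased pairs and changed no call of the 5 pairs. Requiring a mean FPKM of 2 moved the WOX median to 15.4, since it drops 1 of 3 genes, and that of genes outside the blue module to 9.49. The median CV was 11.6% with scaled libraries. It lay between 5.30% and 8.27% without a library, the low end without library 3, where a CV of 2 libraries tends to be smaller than that of 3. With scaled libraries 28 genes, 16 of them A-biased and 12 D-biased, were highest in library 3. The 3 libraries of 1 condition give no test between groups of genes.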
